A study of Drosophila melanogaster with 3 samples.

Results

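The 73 genes described here encode the proteins of the mitochondrial ribosome and were chosen by symbol, as every gene of the dm6 annotation whose name starts with mRpL or mRpS. They are 47 large subunit genes (mRpL) and 26 small subunit genes (mRpS), out of 17947 genes in all. The data are ChIP-seq peak lists for CG1602, a predicted zinc-finger protein, in Drosophila melanogaster. All samples belong to 1 group: whole embryos of both sexes, aged 0 to 24 h, from a transgenic line that stably expresses CG1602 with GFP at its C terminus, precipitated with an antibody against GFP. The 3 biological replicates shared 1 control, per the file headers, and there was no second condition, so no test between conditions was possible. The promoter that drives the fusion gene is not given in the sources used here, and whole embryos of all these ages mix many cell types. Chromatin was sonicated, with a labelled size range of 200 to 800.

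Mitochondria translate the few proteins of their own genome on ribosomes whose RNA comes from that genome and whose proteins are all encoded in the nucleus. The small subunit reads the messenger RNA and the large subunit joins the amino acids, and both are assembled in the mitochondrial matrix from imported proteins. The gene symbols follow homology rather than place in every case: in mammals, the proteins named S18A and S30 sit in the large subunit. Many fly housekeeping genes lie head to head with a neighbour on the other strand, so that a short stretch of DNA serves as promoter of both.

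Peaks came from the list that the authors cut at a threshold of the irreproducible discovery rate (IDR), which scores how alike a peak ranks in different replicates, and from the longer list made on the pooled replicates. The IDR list held 4599 peaks which were exactly the first 4599 of 16640 pooled regions when these are sorted by signal, the authors' own value on an unstated scale. Replicates 1, 2 and 3 had lists of 17580, 27164 and 18386 regions, which include background regions, so sizes were not compared between lists and only ranks were, with rank 1 the strongest. Sequencing depth is unknown. A gene is called bound where an IDR summit, the highest point of a peak, lay within 500 bp of one of its transcription start sites (TSS), and a divergent partner is a gene on the opposite strand with a TSS at most 1000 bp upstream.

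The DNA under the summits is shown first for 6 bound pairs, which are 4 with strong peaks, a pair whose summit lay beside the partner TSS and a pair that holds the promoter element TATCGATA. Coordinates are dm6 and the bases come from the RefSeq copy of that assembly. Every stretch is written 5′ to 3′ on the strand of the mitochondrial ribosomal protein gene, and the 21 bases in capitals are centred on the pooled summit. Where the whole stretch is given, the partner TSS lies just before its first base and the member TSS just after its last. The stretch between mRpS10 and Art3 lies at chr3R:15229409-15229664 on the plus strand, that between mRpL24 and betaggt-I at chr2L:4945362-4945578 on the minus strand, and that between mRpS2 and Mon1 at chr2L:4850420-4850640 on the minus strand. The stretch between mRpL35 and Mitofilin lies at chr3R:22023336-22023526 and that between mRpL32 and qless at chr3R:31252609-31252871, both on the plus strand. For mRpS23 and CenG1A, only 101 bases around the summit are given, at chr2L:13835411-13835511 on the minus strand, and neither TSS adjoins them.
mRpS10 and Art3: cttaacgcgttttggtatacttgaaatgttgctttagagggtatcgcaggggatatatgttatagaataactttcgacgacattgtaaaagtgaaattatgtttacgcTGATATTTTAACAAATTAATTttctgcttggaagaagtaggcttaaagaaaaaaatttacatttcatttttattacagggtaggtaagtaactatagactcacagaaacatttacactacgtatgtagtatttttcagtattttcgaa
mRpS23 and CenG1A, summit window: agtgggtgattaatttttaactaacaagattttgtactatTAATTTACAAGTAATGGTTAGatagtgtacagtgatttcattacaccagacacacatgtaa
mRpL24 and betaggt-I: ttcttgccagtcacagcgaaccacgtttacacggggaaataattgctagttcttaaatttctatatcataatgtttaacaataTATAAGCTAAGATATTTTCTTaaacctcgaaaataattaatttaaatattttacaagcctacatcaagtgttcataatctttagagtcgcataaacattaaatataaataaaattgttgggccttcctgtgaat
mRpS2 and Mon1: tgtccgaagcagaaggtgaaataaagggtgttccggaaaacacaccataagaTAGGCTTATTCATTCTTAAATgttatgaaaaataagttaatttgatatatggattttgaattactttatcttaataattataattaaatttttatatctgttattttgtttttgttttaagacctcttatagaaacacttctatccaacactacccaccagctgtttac
mRpL35 and Mitofilin: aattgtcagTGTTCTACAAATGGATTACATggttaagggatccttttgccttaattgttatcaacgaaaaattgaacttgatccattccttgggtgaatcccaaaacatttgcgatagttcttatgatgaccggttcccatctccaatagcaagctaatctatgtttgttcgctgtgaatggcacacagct
mRpL32 and qless: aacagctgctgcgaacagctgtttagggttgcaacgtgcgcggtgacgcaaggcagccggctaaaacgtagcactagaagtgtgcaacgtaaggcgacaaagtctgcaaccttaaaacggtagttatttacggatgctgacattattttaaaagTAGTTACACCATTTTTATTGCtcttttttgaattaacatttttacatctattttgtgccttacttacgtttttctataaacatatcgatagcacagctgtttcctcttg

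These stretches were mostly A and T. The GC content was 30.1% between mRpS10 and Art3, 28.6% between mRpL24 and betaggt-I and 28.1% between mRpS2 and Mon1, and it was 28.7% in the window at mRpS23. It was higher between mRpL35 and Mitofilin, at 38.7%, and between mRpL32 and qless, at 39.9%. The letters TATAAA, read on both strands, occurred in the stretches of mRpL24, mRpS2 and mRpL32. The mRpL35 summit fell on base 20 of 191 and so next to the Mitofilin TSS, whereas the mRpS10 summit fell on base 119 of 256, close to the middle. For contrast, the next lines give 2 short gaps without a pooled summit, at mRpL15 (chr3L:20436210-20436249, minus strand) and at mRpL48 (chr2L:1710422-1710461, plus strand), with no base in capitals.
mRpL15 and CtIP: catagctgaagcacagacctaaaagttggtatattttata
mRpL48 and CG17660: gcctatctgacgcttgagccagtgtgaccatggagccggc

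The gap at mRpL15 was 32.5% GC and that at mRpL48 was 62.5% GC, each over 40 bases. Their lengths are near the middle for members with a partner and no pooled summit, whose gaps had a median of 45 bp. The gap at mRpL15 held a match to TATAAA, and that at mRpL48 one to the core promoter element Motif 1. These 2 pairs were picked after their values were seen, to show short gaps, and are not a sample of the genes without a pooled summit.

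An IDR summit lay within 500 bp of a TSS at 31 of the 73 mitochondrial ribosomal protein genes (42.5%), against 17.1% of all genes and 20.4% of protein-coding genes. Another 23 (31.5%) had a summit of the pooled list only, and 19 (26.0%) had none. With any pooled summit counted, 54 members (74.0%) were marked, against 35.6% of all genes and 40.7% of protein-coding genes. The 31 summits were 31 different peaks, since no peak was shared between members, but most of them were shared with a partner gene. When each IDR peak was given only to the gene of its nearest TSS, 13 members (17.8%) kept a peak, against 12.3% of all genes, which is much closer to the background than the first count. For pooled summits the same rule left 26 members (35.6%), and no share of all genes was computed under it.

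The subunits had similar shares of genes with any pooled summit and different shares with an IDR summit. Small subunit genes were bound in 15 of 26 cases (57.7%) and large subunit genes in 16 of 47 (34.0%), and each share lay above the 20.4% of protein-coding genes. By the nearest TSS only, 8 small subunit genes (30.8%) and 5 large subunit genes (10.6%) kept a peak, so that the large subunit fell below the 12.3% of all genes. A pooled summit of either kind was present at 19 small subunit genes (73.1%) and at 35 large subunit genes (74.5%). The contrast therefore sat in the pooled-only class, which held 4 small subunit genes (15.4%) and 19 large subunit genes (40.4%). A stricter count asked that a peak also be among the top 4599 regions of 2 replicates, with 1 replicate left out. Without replicate 3, small subunit genes were bound in 9 cases (34.6%) and large subunit genes in 12 (25.5%), against 13.6% of all genes. Without replicate 1 these shares were 42.3% and 23.4%, against 14.2%, and without replicate 2 they were 46.2% and 23.4%, against 14.7%. The subunit difference was not tested.

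**Figure D1:**
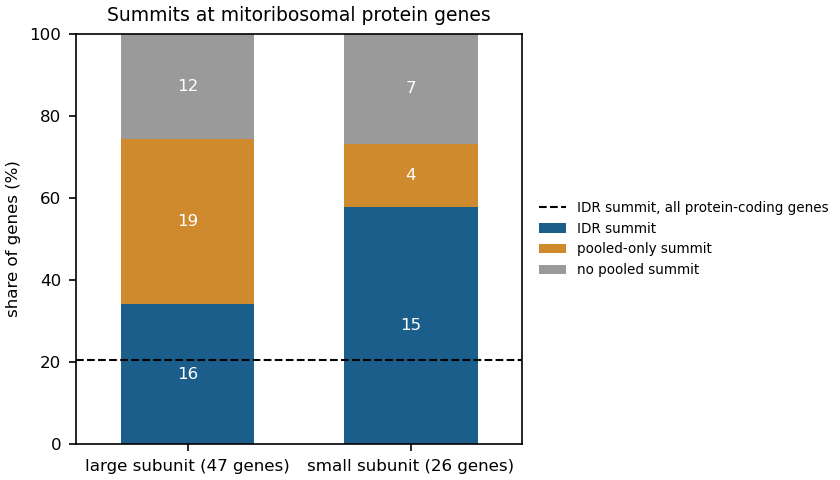
The stacked bars give the share of large and small subunit genes (y axis, %) with an IDR summit, with a pooled-only summit and with no pooled summit within 500 bp of a TSS, with gene counts inside the bars. The dashed line is the 20.4% of protein-coding genes that had an IDR summit; the IDR parts reach 34.0% and 57.7%, and the stacks of IDR and pooled-only genes end at 74.5% and 73.1%.

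Among the bound members, signals spanned nearly the whole range of the IDR list. They ran between 109.4 and 2367, with a median of 199.5, against a median of 203.6 for the 2278 IDR peaks with a summit within 500 bp of any TSS. The median pooled rank was 2089 for the members and 2026 for those peaks. By rank, 10 members stood at 1 to 1150, 6 at 1151 to 2300, 5 at 2301 to 3449 and 10 at 3450 to 4599. These are 32.3%, 19.4%, 16.1% and 32.3% of the members, against 30.9%, 24.4%, 22.1% and 22.6% of all IDR peaks within 500 bp of a TSS. Bound small subunit genes had a median signal of 199.9 and bound large subunit genes one of 172.4.

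In the small subunit, mRpS10, whose bacterial homologue helps to form the head of the subunit, had the strongest peak of all members. Its signal was 2367 in the pooled list (rank 4), and its region ranked 5, 5 and 8 in replicates 1, 2 and 3, so it was near the top of each list. The gene lies at chr3R:15229665-15230516, and the summit stood 138 bp upstream of its TSS and 119 bp from that of Art3, an arginine methyltransferase gene. mRpS23, a protein with no bacterial counterpart, had a signal of 1857 and ranks of 14, 20 and 14. Its summit was 389 bp upstream of the TSS and 103 bp from that of CenG1A, which encodes a regulator of small GTPases, so the peak lay on the partner's side.

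The next small subunit genes ranked lower, at similar places in each replicate. mRpS2, a homologue of bacterial S2, had a signal of 642.9 and ranks of 287, 296 and 194, with the summit 63 bp from the TSS of Mon1, a gene of endosome maturation. mRpS6 had a signal of 361.7 and ranks of 699, 939 and 753. There the summit was 111 bp upstream of mRpS6 and 337 bp from Cip4, a gene of membrane and actin remodelling, and thus on the ribosomal side. mRpS7 (257.1) ranked 1416, 1774 and 1327 and shares its stretch with Cdk1, the mitotic kinase gene. mRpS26 (226.9) ranked 1651, 2398 and 1602, and its summit lay 218 bp from its own TSS and 212 bp from that of CG13698, about midway.

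The other bound small subunit genes had signals between 112.0 and 218.5. They were mRpS24 beside Apc2, a gene of Wnt signalling, mRpS25 beside nmdyn-D6, mRpS31 beside hzg, mRpS29 beside rad50, a DNA repair gene, mRpS22 beside CG5003, mRpS18B beside Kua, mRpS21 beside Droj2, a chaperone gene, mRpS18A beside CG31460, and mRpS11 beside Ns1. mRpS29 encodes a GTP-binding protein of the mitochondrial small subunit. mRpS22 was the only member with more than 1 IDR summit. Its stronger summit, used for its distances, was 227 bp upstream of its TSS, and its weaker one was 19 bp from that TSS.

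In the large subunit, mRpL41 came first, with a signal of 1979 and ranks of 10, 12 and 10. Its summit stood 139 bp upstream of its TSS and 623 bp from that of CG8079, so the partner was outside the 500 bp window. mRpL23, a homologue of a bacterial protein at the exit tunnel, had a signal of 1452 and ranks of 26, 29 and 22. This summit was one of only 2 that lay downstream of the member TSS, by 56 bp from the nearest of 3 annotated TSS. It was 106 bp from the TSS of CG9004. The 4 strongest members, mRpS10, mRpL41, mRpS23 and mRpL23, ranked at 29 or better in every replicate.

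Below them, mRpL24, another homologue of a bacterial exit tunnel protein, had a signal of 720.6 and ranks of 158, 226 and 173. The summit lay 124 bp upstream of mRpL24 and 94 bp from betaggt-I, which encodes a subunit of a protein prenylation enzyme. mRpL20 had a signal of 510.2 and ranks of 441, 464 and 324, beside Icmt, which acts on prenylated proteins. mRpL34 (299.7) ranked 1178, 1606 and 767 beside Dg, the dystroglycan gene. mRpL37 (296.1) ranked 999, 1978 and 900.

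The other 10 bound large subunit genes had signals between 109.4 and 211.2. They were mRpL4 beside CG4440, mRpL35 beside Mitofilin, mRpL11 beside HtrA2, mRpL47 beside CG8176, mRpL44 beside Snr1, a chromatin remodelling gene, mRpL17 beside Tudor-SN, mRpL32 beside qless, mRpL50 beside mei-P22, mRpL18 beside Taz and mRpL53 beside AGO1, the gene of microRNA silencing. Among these partners, Mitofilin shapes the inner mitochondrial membrane, HtrA2 is a mitochondrial protease, Taz remodels the mitochondrial lipid cardiolipin and qless makes the side chain of coenzyme Q. These 4 were singled out after the list was seen.

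The 4 weakest bound members stood just above the lowest signal of the IDR list, which was 108.2, and 3 of them differed widely in rank between replicates. mRpL50 had a signal of 113.2 and ranks of 6608, 4677 and 4651, and it was the only bound member whose region was outside the strongest 4599 in all 3 replicates. mRpL18 (113.1) ranked 2965, 13403 and 5076, high in replicate 1 and low in replicate 2. mRpS11 (112.0) ranked 9239, 3774 and 3514, and mRpL53 (109.4) ranked 9599, 3138 and 4461, both low in replicate 1.

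**Figure D2:**
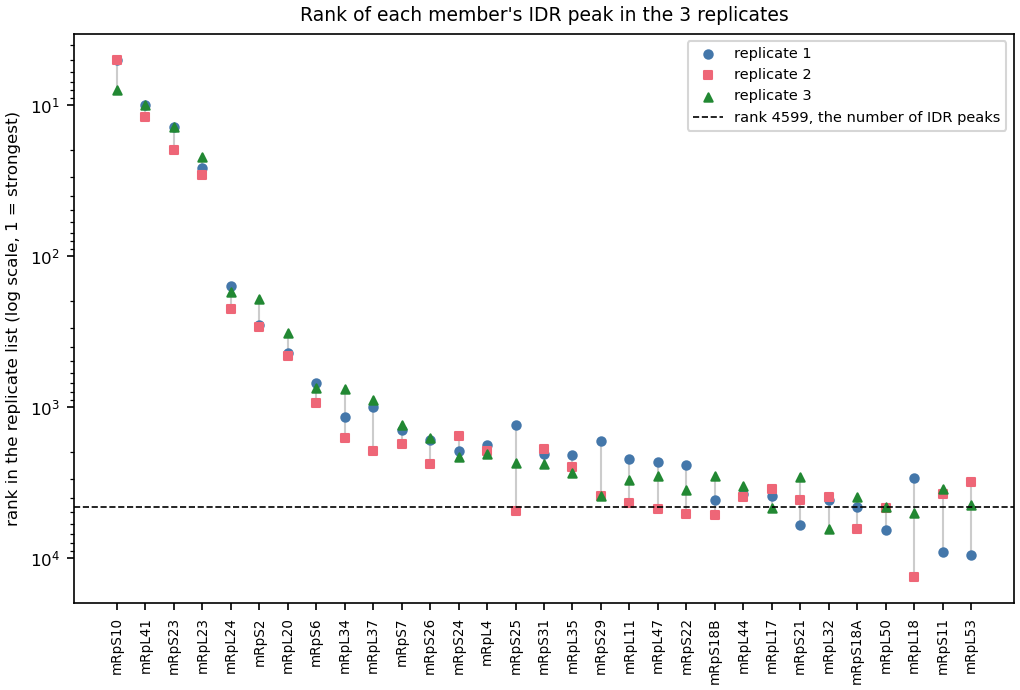
Each bound member's region is placed by its rank in replicate 1, 2 and 3 (y axis, log scale, 1 at the top), with members ordered by pooled signal from left to right and a grey line from best to worst rank. The symbols of the first 8 members lie close together, and mRpL18 spans the widest range, with ranks of 2965, 13403 and 5076.

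A region was found in all 3 replicate lists for each of the 31 bound members. Median ranks were 1965, 2524 and 2413 in replicates 1, 2 and 3. The lists differ in length, and as a share of each list these medians lay 11.2%, 9.29% and 13.1% from the top, so the order of the replicates turned with the scale and is not read as a difference. The ratio of the worst to the best rank had a median of 1.53 and reached 1.60 at most among the 8 strongest members. It was above 2 at 10 members and highest at mRpL18 (4.52), mRpS25 (3.70) and mRpL53 (3.06). mRpS25 had a signal of 199.9 and ranks of 1326, 4905 and 2349, with replicate 2 the lowest, also as a share of its list.

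With replicates cut to their strongest 4599 regions, 19 of the 31 peaks (61.3%) were held by all 3, 9 by 2, 2 by 1 and mRpL50 by none. Of all IDR peaks within 500 bp of a TSS, 76.8% were held by all 3. Leaving out 1 replicate and asking for both others kept between 21 and 23 bound members, against a background of 13.6% to 14.7% of all genes.

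All 31 bound members had a divergent partner, and in every pair it was a protein-coding gene. Over the whole set 58 of 73 members (79.5%) had one, against 35% of all genes and 39.3% of protein-coding genes. Of all genes with an IDR summit, 67.2% had a partner. Among pooled-only members the count was 16 of 23 (69.6%), and among members without a summit 11 of 19 (57.9%). None of the 15 members without a partner was bound, 7 of them had a pooled-only summit and 8 had none.

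Members with a partner were bound in 53.4% of cases, against 36.1% of protein-coding genes with a partner and 10.3% of those without. Any pooled summit was present at 81.0% of members with a partner, against 62.3% of protein-coding genes with one. Partners were about as frequent in the large subunit (37 of 47, 78.7%) as in the small (21 of 26, 80.8%). Of the genes with a partner, 43.2% were bound in the large subunit and 71.4% in the small. How far the arrangement of the genes and their class each go with the share that was bound was not tested.

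The length of the gap between the paired TSS went with the class of the gene. The median gap was 328 bp at bound members (20 to 793 bp), 260.5 bp at pooled-only members (31 to 515 bp) and 45 bp at members without a summit (21 to 499 bp). With a gap under 100 bp, 5 of 18 members (27.8%) were bound, close to the 27.3% of all genes with such a gap. Between 200 and 500 bp, 19 of 31 members (61.3%) were bound, against 44.4% of all such genes. The few pairs of other lengths held 3 bound members of 4 from 100 bp to under 200 bp and 4 of 5 above 500 bp, against 24.4% and 21.7% of all genes. Ranges of the 3 classes overlapped.

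**Figure D3:**
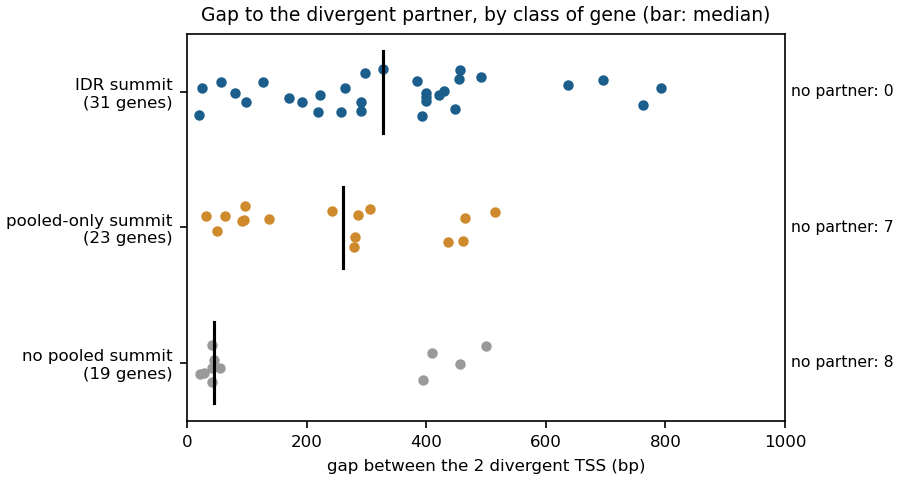
Each point is a mitochondrial ribosomal protein gene with a divergent partner, placed by the gap between both TSS (x axis, bp) and grouped by class, with a bar at the median and the number of genes without a partner at the right (vertical scatter within a row is for legibility). Bound genes centre on 328 bp with none lacking a partner, while 7 of the 11 paired genes without a summit lie under 100 bp.

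Within the pairs, the summit was nearer the partner TSS at 19 of 31 bound members (61.3%) and nearer the member TSS at 12. mRpS22 was counted on the partner's side by its stronger summit, although its weaker one gave it a peak by the nearest TSS. Median distances were 163 bp to the member TSS and 143 bp to the partner TSS, and at 6 pairs they differed by 25 bp or less. Among members with 1 annotated TSS the partner was nearer in 18 of 29 (62.1%), against 53.0% of the 1196 bound protein-coding genes with 1 TSS and a partner. In the large subunit the partner was nearer at 11 of 16 and in the small subunit at 8 of 15. The summits of the replicates themselves gave 12, 13 and 15 members with the own TSS nearer in replicates 1, 2 and 3, so the side was not settled in every pair. With the peaks held without replicate 1, 2 or 3, the own TSS was nearer in 8 of 22, 7 of 23 and 7 of 21 bound members.

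At 27 of the 31 pairs the summit lay between both TSS. The exceptions were mRpL23, mRpS11, mRpL11 and mRpL18. At mRpL23 and mRpS11 it stood 56 and 6 bp downstream of the nearest TSS of the ribosomal protein gene. At mRpL11 and mRpL18 it fell on the far side of the partner TSS, by 67 and 143 bp. These 4 pairs had gaps of 126 bp or less. Over all bound members the median position was 163 bp upstream of the member TSS, with 29 upstream and 2 downstream. The median over all bound genes was 142 bp upstream. Summits of replicates 1, 2 and 3 themselves gave medians of -138, -145 and -142 bp (negative upstream) at the bound members. These are close to the value of all bound genes, but that value was read at IDR summits. A median over all bound genes was not computed in each replicate. Whether the members' summits are shifted was not tested, and the pooled difference is not read as a shift. The partner TSS was also within 500 bp of the summit in 29 pairs, so at those the same peak marks both genes and cannot be given to either of them. The other 2 pairs were mRpL41 with CG8079 at 623 bp and mRpL4 with CG4440 at 679 bp. At mRpL4 no other gene was within reach, while at mRpL41 the non-coding gene lncRNA:CR44463 also had a TSS within 500 bp of the summit.

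**Figure D4:**
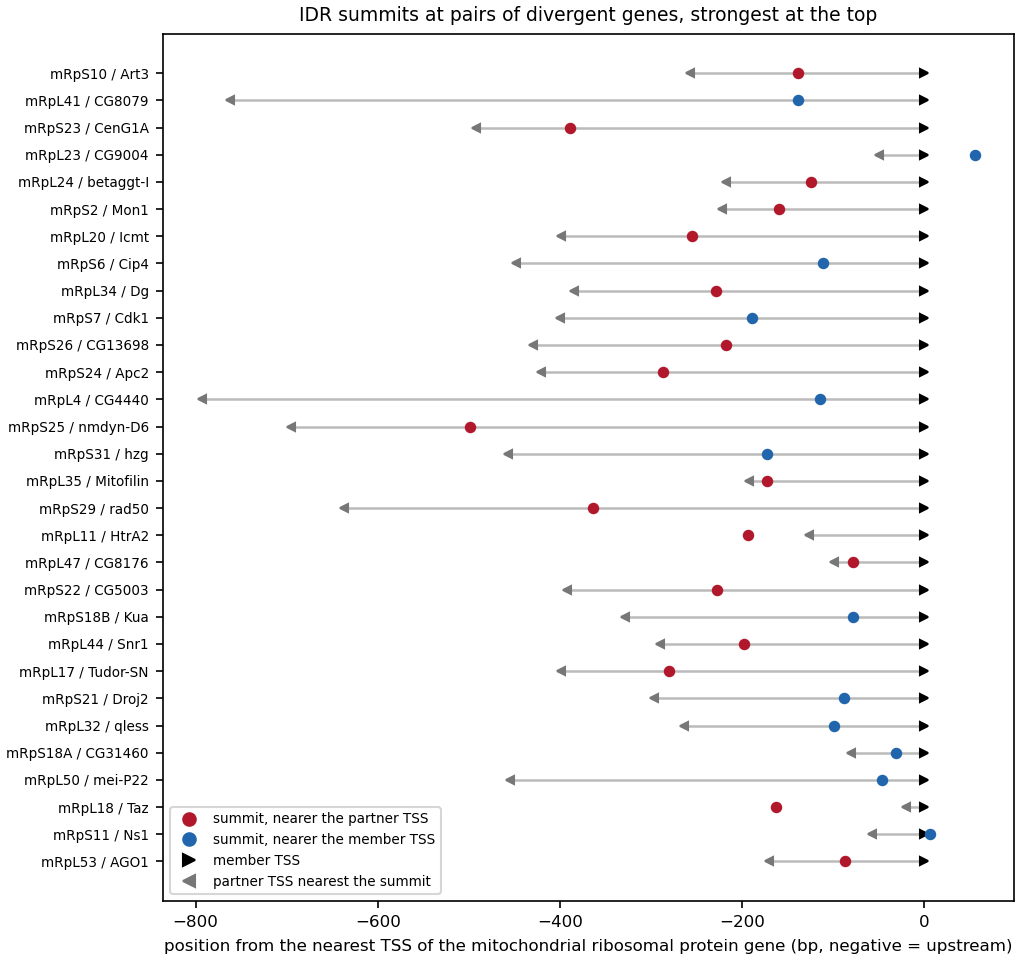
Each row is 1 of 30 bound pairs, ordered by signal with the strongest at the top; the x axis gives bp from the member TSS, negative upstream, with the member TSS as a black triangle at 0, the partner TSS nearest the summit as a grey triangle and the summit as a dot. Dots are red where the partner TSS was nearer (18 pairs) and blue where the member TSS was nearer (12 pairs), and 26 dots lie between the triangles.

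A limit of 1000 bp in place of 500 bp left the 31 bound members at 31 (42.5%). The share of all genes rose from 17.1% to 20.6% with this change. A limit of 250 bp left 25 bound members (34.2%), of which 11 were in the small subunit, against 13.0% of all genes. Any pooled summit lay within 250 bp at 43 members (58.9%), for which no share of all genes was computed. The summit at mRpS25 stood 499 bp upstream, and that of the pooled-only gene mRpS5 490 bp downstream, while no member had its nearest pooled summit in the next 100 bp beyond the limit. The mRpS25 summit was 196 bp from the nmdyn-D6 TSS on the other side. The mRpS5 region had a signal of 85.9 and ranks of 11145, 6347 and 5838 in replicates 1, 2 and 3.

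The pooled-only genes began just below the end of the IDR list. mRpL21, beside rept, a gene of chromatin remodelling, had a signal of 99.5 and ranks of 14923, 5827 and 3771, with replicate 1 far below the others. mRpL19, which had no partner, had 96.8 and ranks of 9334, 2819 and 6392. mRpL42 had 91.6 and a summit 2 bp from the PIG-N TSS, with ranks of 5264 and 4137 in replicates 2 and 3 and no region in replicate 1. Replicate 1 gave the worst rank, or no region, at each of these 3 genes. mRpS16 beside cg (88.8) ranked 7068, 4439 and 6752, and mRpS17 beside Nop60B (88.2) ranked 5728, 6964 and 9943.

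The other pooled-only genes were mRpS5, mRpL27, mRpL43, mRpL51, mRpL36, mRpL2, mRpL1, mRpL54, mRpL55, mRpL13, mRpS30, mRpL3, mRpL52, mRpL10, mRpL39, mRpL9, mRpL16 and mRpL49. Their signals ran between 42.9 and 85.9. A region was present in replicates 1, 2 and 3 at 16, 20 and 21 of the 23 pooled-only genes, and in all 3 at 12. Of the 16 with a partner, the summit was nearer the partner TSS at 13.

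The 19 members without a pooled summit were mRpL12, which forms the stalk of the ribosome, mRpL14, mRpL15, mRpL22, mRpL28, mRpL30, mRpL33, mRpL38, mRpL40, mRpL45, mRpL46, mRpL48, mRpS9, mRpS14, mRpS18C, mRpS28, mRpS33, mRpS34 and mRpS35. Their nearest pooled summit was between 651 bp (mRpL33) and 19143 bp (mRpL30) away, with a median of 3662 bp. In the replicate lists, which include background, 11 had no summit within 500 bp in any replicate and 7 had one in a single replicate. mRpL45 had one in 2, at ranks 8325 and 15829 in replicates 2 and 3. No summit in these lists means no region at the authors' depth and cut-off, not that the protein is absent. The genes of S18 type fell in different classes, with mRpS18A and mRpS18B bound and mRpS18C unmarked.

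By chromosome arm, 6 of 12 members (50%) were bound on 2L, against 16.7% of all genes there, and 5 of 12 (41.7%) on 2R, against 16.03%. On 3L, 7 of 17 (41.2%) were bound, against 17.98% of its genes, and on 3R 12 of 21 (57.1%), against 19.2%. On the X chromosome 1 of 11 was bound (9.09%), against 15.4% of the 2739 X-linked genes, and 6 had no pooled summit. The bound X-linked gene was mRpS25.

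Base composition and motifs were read within 100 bp of each summit. Bound members averaged 32.7% ± 7.36 GC (SD, n = 31 summits), against 34.0% ± 6.56 at the 2278 IDR promoter summits. The highest values were those of mRpL53 (55.7%), mRpL18 (53.7%) and mRpS11 (42.3%), which are also among the 4 weakest peaks. Pooled-only summits averaged 36.9% ± 8.61 (SD, n = 23).

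Motifs were searched on both strands. The DNA replication-related element TATCGATA, a promoter element of many housekeeping genes, was found at 2 bound members (6.45%), mRpS18B and mRpL32, against 6.19% of IDR promoter summits and 5.88% of windows upstream of all genes. Its core ATCGAT, which lies inside it, was at 7 (22.6%), against 15.8% and 16.2%. CACTGAGA and the core promoter element Motif 1 were at none of the 31, against 1.89% and 2.02% of IDR promoter summits. The windows upstream of all genes held these in 0.63% of cases for CACTGAGA. The E-box CAGCTG was at 6 (19.4%), against 9.96% of IDR promoter summits and 10.6% of windows upstream of all genes. TATAAA was at 14 (45.2%), against 40.7% and 35.2%, and GCGCATGC at none, against 0.351% and 0.663%. At pooled-only summits, the E-box was at 21.7% and ATCGAT at 13.0%. Members without a summit can be compared only by windows upstream of the gene. In these, the E-box was found at 16.1% of bound members, 13.0% of pooled-only members and 31.6% of members without a summit. ATCGAT was in 25.8%, 30.4% and 36.8% of the same upstream windows. TATAAA went the other way, at 45.2%, 30.4% and 26.3%, and TATCGATA was in 12.9%, 17.4% and 5.26%. With 31 windows, a difference of a few matches decides such shares, and a match is a run of letters and not a site.

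With every gene within 500 bp of a summit counted, other genes of mitochondrial translation and gene expression were bound at about the background share. Of the mitoribosome genes with older names, tko was bound with a signal of 118.1 and bonsai was not. Of 9 translation factor genes found, 2 were bound, mEFTu2 (133.0) and mEFTu1 (123.6), which deliver aminoacyl-tRNA to the ribosome. Of 15 mitochondrial aminoacyl-tRNA synthetase genes, 3 were bound, ProRS-m (137.2), CysRS-m (136.9) and ArgRS-m (125.0). Of 9 genes of mitochondrial transcription and RNA handling, 2 were bound, mTerf5 (163.4) and PolrMT (123.8), the mitochondrial RNA polymerase. The shares of these last 3 lists were 22.2%, 20% and 22.2%, close to the 20.4% of protein-coding genes, so their counts do not stand apart from the background. By the nearest TSS only, each list kept 2 bound genes (22.2%, 13.3% and 22.2%), against 17.8% of the members and 12.3% of all genes. The lists' shares with a divergent partner were 44.4%, 46.7% and 88.9%, against 79.5% of the members. All signals of the bound genes named here were below the members' median of 199.5.

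Cytoplasmic ribosomal protein genes were bound in 53 of 92 cases (57.6%), above the 42.5% of the mitochondrial ones and, like them, above the 17.1% of all genes. With peaks given to the nearest TSS only, 47 of the cytoplasmic genes (51.1%) kept a peak, against 13 (17.8%) of the mitochondrial genes. A divergent partner was present at 63.0% of the cytoplasmic genes and at 79.5% of the mitochondrial genes.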

How the data were processed

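The deposited peak lists of the dm6 build were used: 1 per replicate, 1 from the pooled replicates and 1 thresholded by IDR, each with a signal value per region from the authors, on a scale that is not given. Per the file headers, replicate lists were made from each replicate and 1 shared control. How reads were aligned, which program called peaks and where IDR was cut is not given in the sources used here. No read counts were used, so depth is unknown. Lists for the dm3 build were not used.

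Genes came from Ensembl release 115 and bases from RefSeq, both of the dm6 assembly, without pseudogenes. A summit was assigned to every gene with a TSS within 500 bp, and a replicate's region to a peak by at least 1 shared bp, taking the strongest. Every member was placed in a class. Values by replicate are given for the 12 strongest and 4 weakest bound members, for those whose ranks differed most, for those near the distance limit and for the 5 strongest pooled-only ones. The members and lists were chosen with earlier results of these data known, so their counts are descriptions. Genes are not independent replicates. The partner of 1 bound member is not reported here, so 1 pair is not drawn. The assignment was tested on simulated data. Computations used Python 3.11.15, numpy 2.4.6 and pandas 2.3.3, and plots matplotlib 3.10.9. Alternatives changed the window, the list, the assignment, the TSS set and the replicates.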

Additional observations from a re-analysis of the deposited data

How the results depend on the processing

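Of 64 alternatives to the main values, 45 stayed within 1.5 times the count or within 1 SD over replicates, and 19 did not. Bound members numbered 31, and 16 with the stronger part of the IDR list (2299 peaks; 10.1% of all genes), 19 with peaks held by all 3 replicates (13.2%) and 13 by the nearest TSS only (12.3%). Bound large subunit genes numbered 16, and 7, 10 and 5 under the same alternatives, and bound small subunit genes 15, and 9, 9 and 8. Leaving out each replicate gave 21 to 23 bound members, 11 to 12 in the large subunit and 9 to 12 in the small. Pooled summits marked 54 members (74.0%), 26 (35.6%) by the nearest TSS only and 45 to 50 with a replicate left out. No share of all genes was computed for these pooled alternatives. The own TSS was nearer at 12 bound members and at 7 to 8 with a replicate left out, where fewer members were bound. The median position of 163 bp upstream (-163) was -147.5 over the pooled list, -138 with a 250 bp window, where farther summits drop out, and -189 to -172 with a replicate left out. From the replicates' own summits it was -138, -145 and -142. The median of the mean rank, 2449, was 2860 with summits within 250 bp. The causes of the other shifts were not tested.

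No paired analysis was possible because there is 1 group only. Unknown depth and summits shared by neighbouring genes limit what a missing or present peak shows.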
